A study of Mus musculus with 14 samples.

Results

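Donor-derived CD4+ T cells with low surface PSGL1, the P-selectin glycoprotein ligand 1 that the gene Selplg encodes, sorted from the lung of mice with chronic graft-versus-host disease (cGVHD), were compared with the same sort from the liver over all genes. The members were chosen by their sample titles alone and are 4 of the 14 bulk RNA sequencing libraries of the series, 2 from lung PSGL1lo and 2 from liver PSGL1lo cells. In all 4, the T cells were of the C57BL/6 strain and the recipients were BALB/c mice given T-cell-depleted C57BL/6 bone marrow together with splenocytes. Tissues were taken 30 days after transplantation. The matching PSGL1hi sorts from the same tissues, 2 libraries each of lung and liver, serve to show where PSGL1lo cells differ. The labels do not give the age of the mice, the number of animals behind a library or whether 2 replicates came from separate animals. Each p-value thus rests on the spread between 2 libraries a group, estimated over all 7 groups of the series, and that spread may be technical. Unless PSGL1hi is named, lung libraries and liver libraries below are those of PSGL1lo cells.

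Graft-versus-host disease arises when donor T cells respond to the recipient's tissues, and its chronic form shares features with autoimmune disease and can damage lung and liver. PSGL1 is a mucin-like ligand of the selectins that lets leukocytes roll on vessel walls, and T cells with little of it include those that help B cells make antibody. The title of the series ties these cells to tissue residence, to help for B cells and to autoimmunity in cGVHD. T cells in a tissue can be described by genes of residency, of egress through lymph, of effector function and of the response to antigen, interferon or stress, and the groups below follow these roles.

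The lung and liver sorts differed widely. Of 13780 genes tested, 5504 were called different at an adjusted p under 0.05, which is 39.9% of them (quasi-likelihood F test of edgeR, adjusted over all genes by Benjamini and Hochberg). In lung 2695 genes were higher (19.6%) and 2809 lower (20.4%). Tested against a change of 1.5-fold, 876 were higher (6.36%) and 432 lower (3.13%), together 9.49% of the genes tested. For 8924 genes (64.8%) both lung libraries lay on the same side of both liver libraries, so a pair of groups that does not overlap is common here. The libraries held 23568133 and 22417120 counts in lung and 33532595 and 23054577 counts in liver, and a count of 3, the limit that a count of 0 allows, lay between 0.0859 and 0.134 CPM, the usual unit of counts scaled to library size. The liver pair was the most unlike of all 7 groups, its biological coefficient of variation being 12.3%, while the lung pair had 8.49% and the 7 pairs ranged from 3.81% to 12.3%. The common value of the fit over all 7 groups was 7.35%, below that of either pair compared here. The first liver library stood apart in its label, which carries the number 18 where the other 7 lung and liver libraries carry 44 to 50, a number whose meaning the labels do not give. It had the most counts of the 4 but the fewest genes with a count, 14036, against 15114 and 15371 in the lung libraries and 14985 in the second liver library. Without it 4507 genes were called, 2088 higher in lung and 2419 lower, and 1064 past 1.5-fold. Changes are given as lung minus liver on the log2 scale ± SE, with 2 libraries a group, and each list of genes is to be read against the 39.9% called over all genes and their median change of -0.00061.

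**Figure D1:**
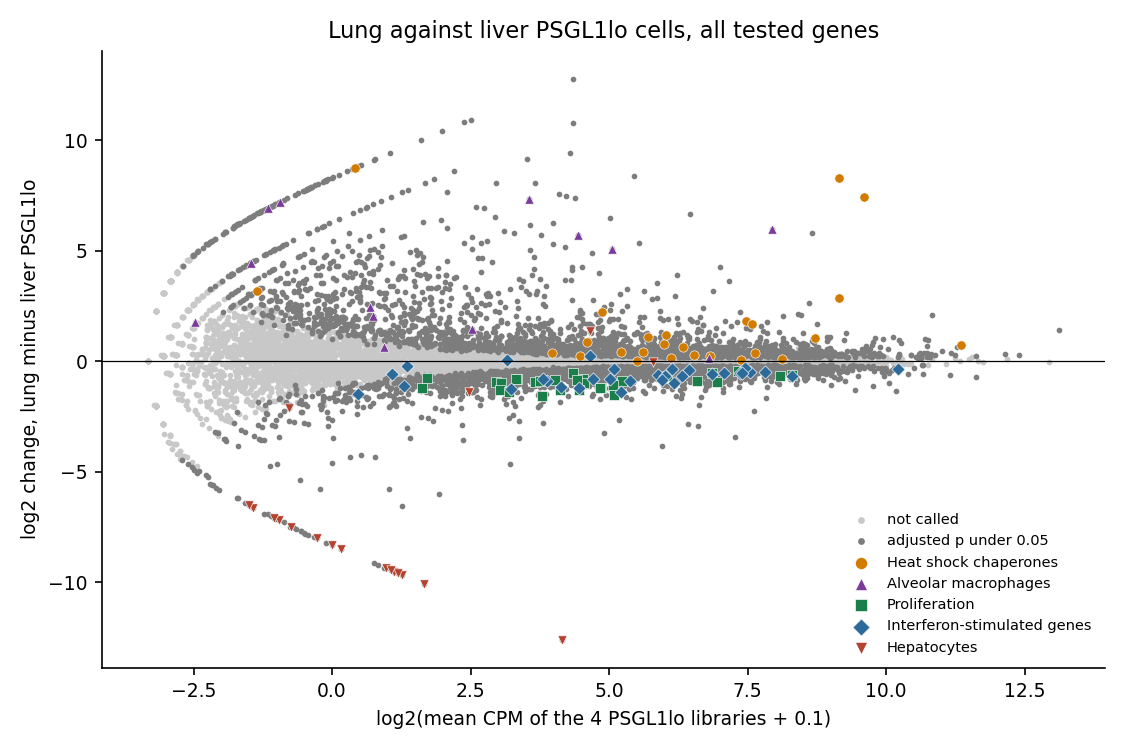
Log2 change between lung and liver PSGL1lo cells (vertical axis) by mean level (horizontal axis) for each of 13780 genes tested; dark grey points had an adjusted p under 0.05 and coloured points belong to 5 gene lists. Heat shock and alveolar macrophage genes lie above 0, and proliferation genes, most interferon-stimulated and most hepatocyte genes below; the curved rows of points at both edges are genes with no count, or very few, in one tissue, whose fitted change depends on the model's prior count.

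The sort was first checked on its own markers. Cd4 had 2660 and 2599 CPM in the lung libraries, against 2571 and 2551 CPM in the liver libraries, and this coreceptor of helper T cells was not called different (log2 change 0.04 ± 0.06, adjusted p = 0.645). Cd3e, a chain of the T cell receptor complex, had 1168 and 1200 CPM in lung and 1283 and 1100 CPM in liver and was not called either (adjusted p = 0.949). Selplg had 383 and 456 CPM in the lung libraries, against 612 and 540.2 CPM in the liver libraries, and the gene of the protein used for sorting was lower in lung (log2 change -0.46 ± 0.09, adjusted p = 0.000309). In PSGL1hi cells Selplg stood at 925 and 994 CPM in lung PSGL1hi, against 909 and 937 CPM in liver PSGL1hi libraries, above all 4 PSGL1lo libraries. Cd8a, the CD8 coreceptor chain that the sort should lack, had 2.37 and 3.08 CPM in lung and 18.6 and 16.8 CPM in liver.

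Each tissue's sort also carried RNA of that tissue's own cells. Of 22 tested genes of myeloid cells 17 were higher in lung and 3 lower (none of them lower without the first liver library), and the list summed to 1708 and 2403 CPM in lung and 413 and 308 CPM in liver. Of 13 tested genes of alveolar macrophages 10 were higher and none lower. Chil3, a chitinase-like protein abundant in alveolar macrophages, had 399 and 569 CPM in lung and 10.9 and 3.33 CPM in liver. Lyz2, a lysozyme of myeloid cells, had 633 and 965 CPM in the lung libraries, against 21.2 and 6.65 CPM in the liver libraries. The alveolar macrophage list summed to 635 and 864 CPM in lung and 129 and 116 CPM in liver, so the second lung library held the most. Most of the liver sum is Abcg1, a cholesterol exporter that T cells express too, named here after its values were seen, at 108 and 105 CPM in the liver libraries. Lung PSGL1hi libraries, at 588 and 775 CPM, came close to the lung PSGL1lo libraries. Surfactant and secretory genes of lung epithelium were at low levels in lung and at 0 in liver: Sftpc had 1.78 and 1.88 CPM, whereas Scgb1a1, the club cell secretory protein, had 1.99 and 78.6 CPM, so that 1 lung library carried nearly all of it.

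Of 19 tested hepatocyte genes 17 were lower in lung and 1 higher, and the list summed to 91.2 and 98.6 CPM in lung and 164 and 139 CPM in liver. Nearly all of the lung sum came from Ass1, an enzyme of arginine synthesis named after its values were seen, and Trf (transferrin), which other cells express too. They had 57.1 and 53.7 CPM and 33.1 and 39.6 CPM in lung, against 59.95 and 51.6 CPM and 13.5 and 14.2 CPM in liver, so the sum is no measure of hepatocyte RNA in the lung sort. Alb, the plasma protein albumin, had no count in either lung library, against 38.8 and 31.8 CPM in the liver libraries, at least 270.3-fold lower in lung when 3 counts per lung library are taken as the floor. Clec4f and Vsig4, which mark Kupffer cells, the macrophages of the liver, likewise had no count in lung, against 2.55 and 0.758 CPM and 0.401 and 0.421 CPM in liver. Of 12 tested genes of the Kupffer list 5 were lower in lung and 2 higher. That list summed to 55.7 and 61.5 CPM in lung and 33.1 and 26.5 CPM in liver, mostly from the 2 higher members Hmox1 and Id3, which other cells express too; Hmox1 had 21.03 and 22.6 CPM in lung and 14.1 and 11.5 CPM in liver. Neutrophil genes were uneven within liver, since S100a8 had 25.3 and 5.81 CPM and Ngp 30.4 and 5.01 CPM in its 2 libraries, the first far above the second. Of 13 tested genes of neutrophils, basophils and mast cells 9 were lower in lung, and without that first liver library 3 were. In such bulk sorts, fewer cells of a type and less RNA per cell cannot be told apart, and the part of these other cells in the T cell results below was not tested.

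**Figure D2:**
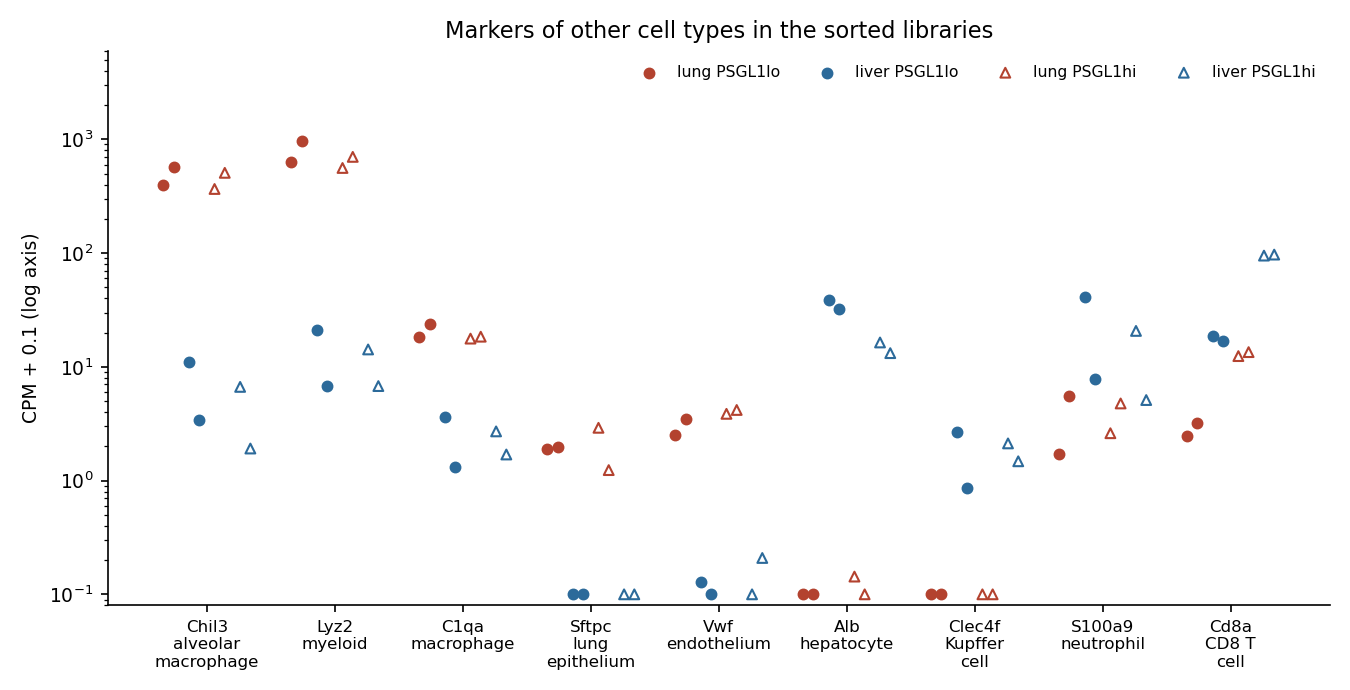
Level (CPM + 0.1, log axis) of 9 marker genes of other cell types in each PSGL1lo (filled circles) and PSGL1hi (open triangles) library, lung in red and liver in blue. Chil3, Lyz2 and C1qa are highest in the 4 lung libraries, Alb and Clec4f in the 4 liver libraries, and points at 0.1 have no count.

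Many of the genes that led the higher end in lung belong to activated macrophages as well. Slc7a2, a transporter of cationic amino acids, had 33.3 and 47.3 CPM in lung, against 0 and 0.0421 CPM, or 0 and 1 counts, in liver. Mmp12, the macrophage elastase, had 70.8 and 104 CPM in lung and 0.143 and 0.421 CPM in liver. The cytokines Il1a and Il1b had 34.3 and 44.1 CPM and 49.5 and 77.7 CPM in lung, against 0 and 0.126 CPM and 0.859 and 0.505 CPM in liver. Cd14, Ccl6, Cxcl2, Ptgs2, Plet1, Mmp19, Atp6v0d2 and Nlrp3 followed the same pattern, with 13.0 CPM or more in every lung library and at most 2.26 CPM in any liver library. The rule that picked all of these genes required 10 CPM or more in both lung libraries and no overlap. In each of these 12 genes the second lung library was the higher one, as it was for Lyz2 and Chil3. Class II MHC genes, which present antigen, showed this too, with H2-Aa at 110.3 and 169 CPM in lung and 10.5 and 7.79 CPM in liver. Of 10 tested class II genes 7 were higher in lung and none lower.

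Heat shock chaperones, which refold proteins under stress, were higher in lung. Of 27 listed genes 26 were tested, 21 were higher in lung and none lower, with a median change of 0.76, and 17 to 20 were higher when any 1 of the 4 libraries was left out. Hspa1a had 1076 and 1193 CPM in the lung libraries, against 3.69 and 3.54 CPM in the liver libraries, a 312-fold difference (log2 change 8.29 ± 0.12, adjusted p = 3.33e-22). Its neighbour Hspa1b, a near-identical copy of the inducible HSP70 gene whose reads cannot be told from it with certainty, had 1461 and 1625 CPM in lung and 7.79 and 10.02 CPM in liver. Both genes were close to silent in both liver libraries and abundant in both lung libraries. Dnajb1 had 929 and 1055 CPM in the lung libraries, against 145 and 131 CPM in the liver libraries, and this HSP70 cochaperone was 7.18-fold higher (log2 change 2.84 ± 0.09, adjusted p = 1.19e-15). Hsph1 had 285 and 270.3 CPM in the lung libraries, against 72.04 and 82.5 CPM in the liver libraries (log2 change 1.85 ± 0.10, adjusted p = 3.42e-12), and it exchanges nucleotides on HSP70. Hsf1, the factor that switches these genes on and a list member named after its values were seen, had 43.3 and 47.3 CPM in lung and 44.6 and 44.98 CPM in liver and was not called (adjusted p = 0.917). The groups did not overlap for any of the chaperones named here, whereas the Hsf1 levels of the tissues did. No overlap was required in picking Hspa1a and Hspa1b. Hspa1a was also high in the lung in the other fraction, at 1498 and 1343 CPM in lung PSGL1hi, against 3.06 and 2.94 CPM in liver PSGL1hi libraries, and of the 26 chaperone genes 21 were higher in lung than in liver PSGL1hi cells and none lower. Tissue and the handling of each tissue before sorting cannot be told apart.

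The promoter windows of 3 chaperone genes are shown because the chaperones were higher in lung together; they come from RefSeq on build GRCm38.p6, run from 250 bases before to 50 after the transcription start, and capitals mark the heat shock element searched for, GAANNTTC or TTCNNGAA, each of which reads the same on both strands. Hspa1a lies at chr17:34972107-34972406 and Hspa1b at chr17:34959189-34959488, both on the minus strand, and their windows share 296 of 300 bases with 1 match each, starting 104 bases before the start (position -104). Hsph1, with its first window at chr5:149636287-149636586 on the minus strand, has 3 matches, the first at -33 and the other two downstream of the start and overlapping each other.
Hspa1a: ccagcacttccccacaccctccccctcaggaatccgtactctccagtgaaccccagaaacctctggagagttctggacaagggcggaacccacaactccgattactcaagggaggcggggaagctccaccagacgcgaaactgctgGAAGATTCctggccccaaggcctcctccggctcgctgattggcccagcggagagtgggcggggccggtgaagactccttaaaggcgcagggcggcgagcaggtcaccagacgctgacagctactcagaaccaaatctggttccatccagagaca
Hspa1b: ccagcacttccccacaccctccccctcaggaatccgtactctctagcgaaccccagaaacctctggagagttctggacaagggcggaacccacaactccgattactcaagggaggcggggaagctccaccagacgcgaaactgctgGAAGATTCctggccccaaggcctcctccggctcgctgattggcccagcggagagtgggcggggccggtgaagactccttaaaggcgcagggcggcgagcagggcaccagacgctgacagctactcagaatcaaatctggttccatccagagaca
Hsph1: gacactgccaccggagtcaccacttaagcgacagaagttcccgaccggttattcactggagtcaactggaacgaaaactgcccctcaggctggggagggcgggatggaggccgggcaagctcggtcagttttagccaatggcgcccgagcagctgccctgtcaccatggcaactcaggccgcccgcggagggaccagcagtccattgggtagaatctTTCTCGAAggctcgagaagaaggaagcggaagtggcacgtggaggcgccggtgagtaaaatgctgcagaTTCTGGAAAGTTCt
Of the 26 tested chaperone genes 20 had a window in the table and 10 of those held a match, as did 8 of the 16 called higher in lung that had a window, against 15.1% of all 32851 windows. Such a match is a description of the letters and not a site shown to be bound.

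Genes that T cells switch on within minutes of receptor signals or stress moved both ways. Of 29 immediate early genes 18 were higher in lung and 8 lower, with a median of 0.82. With only the 4 PSGL1lo libraries fitted, 5 were lower. The lower count fell without the first lung library and rose without the second. Atf3 had 44.7 and 55.1 CPM in the lung libraries, against 1.17 and 2.32 CPM in the liver libraries (log2 change 4.91 ± 0.17, adjusted p = 7.16e-15), and it is a stress-induced factor of the AP-1 family. Fosl2 had 283 and 245 CPM in the lung libraries, against 19.9 and 23.3 CPM in the liver libraries, and this AP-1 subunit was 12.3-fold higher (log2 change 3.62 ± 0.11, adjusted p = 9.65e-16). Nr4a1, a nuclear receptor that reports T cell receptor signals, had 693 and 653 CPM in lung and 102 and 116 CPM in liver (log2 change 2.63 ± 0.09, adjusted p = 7.37e-15). None of these 3 genes overlapped between tissues. On the other side lay Egr2, a factor that also follows receptor signals, with 54.8 and 43.9 CPM in lung and 109 and 120.2 CPM in liver (log2 change -1.21 ± 0.09, adjusted p = 9.45e-10). Fosb, another AP-1 subunit, had 225 and 299 CPM in lung and 402 and 552 CPM in liver (log2 change -0.86 ± 0.13, adjusted p = 2.07e-05), with the second lung library nearer to liver. Fos itself had 652 and 912 CPM in lung and 811 and 900.2 CPM in liver and was not called, but without the second lung library it was lower in lung (log2 change -0.39, adjusted p = 0.00176).

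The NF-kappaB list, which holds the subunits of this inflammatory factor and its inhibitors, had 8 of 19 members higher in lung and 1 lower. In both directions together 47.4% were called, near the 39.9% over all genes. Over all genes 19.6% were higher and 20.4% lower, so the list leaned to the higher side. With only the 4 PSGL1lo libraries fitted, 6 were higher and none lower. The lower call also varied with the library left out. Tnfaip3 had 2750 and 3150 CPM in the lung libraries, against 629 and 751 CPM in the liver libraries, and this A20 deubiquitinase that dampens NF-kappaB was 4.28-fold higher (log2 change 2.10 ± 0.08, adjusted p = 3.55e-14). Nfkbiz, an atypical inhibitor that also acts as a coactivator, had 273 and 274 CPM in lung and 89.4 and 106 CPM in liver (log2 change 1.49 ± 0.08, adjusted p = 4.86e-12). Rel, the c-Rel subunit, had 364 and 282 CPM in lung and 119 and 151 CPM in liver (log2 change 1.26 ± 0.11, adjusted p = 7.10e-09). Per1, a clock gene that glucocorticoids induce, was higher too (log2 change 1.79 ± 0.09, adjusted p = 1.12e-12), as was Tsc22d3, the glucocorticoid-induced leucine zipper (log2 change 1.07 ± 0.07, adjusted p = 9.50e-11). Of the 19 glucocorticoid and clock genes 6 were higher and 3 lower, and 10 were higher without the second liver library. Fkbp5, another glucocorticoid target, had 257 and 216 CPM in lung and 240.3 and 229.5 CPM in liver and was not called (adjusted p = 0.948).

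**Figure D3:**
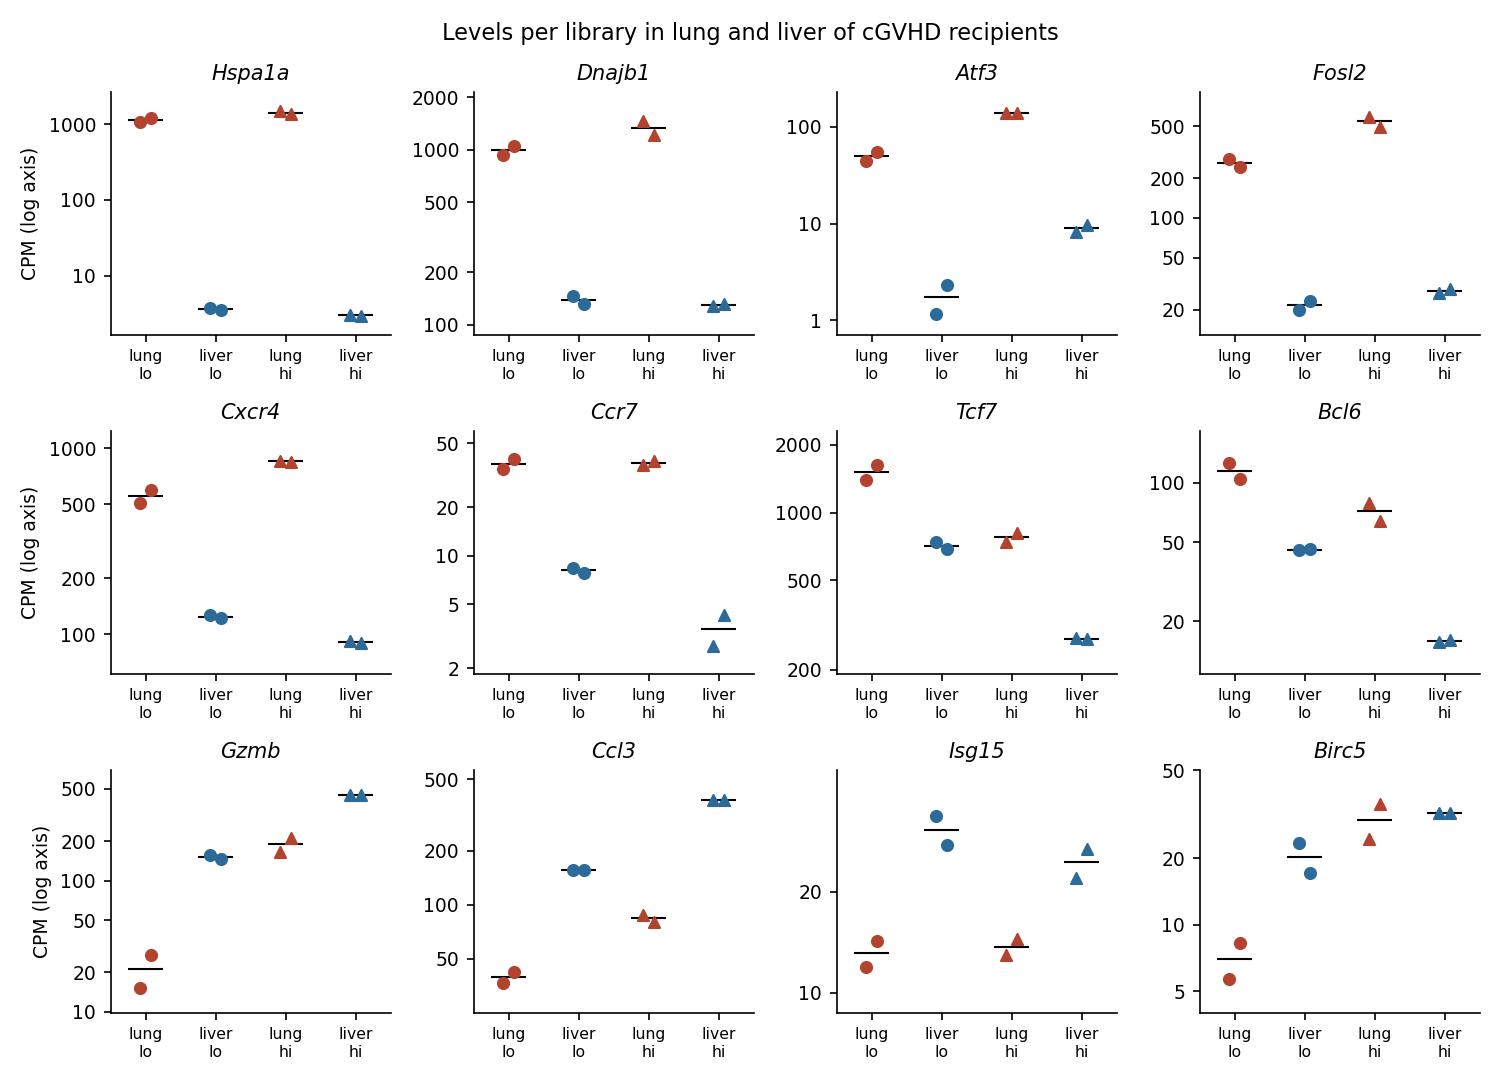
Level (CPM, log axis) of 12 genes in each PSGL1lo (circles) and PSGL1hi (triangles) library of lung (red) and liver (blue); black bars are means of 2 libraries. In PSGL1lo cells the lung libraries lie above the liver libraries for Hspa1a to Bcl6 and below them for Gzmb to Birc5, with no overlap. The choice of Hspa1a, Gzmb and Ccl3 already required that.

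Genes of follicular helper T cells and B cell help leaned to lung. Of 29 listed genes 18 were higher in lung and 3 lower, with a median change of 0.55; 16 or 17 were higher when any 1 library was left out. Bcl6 had 126 and 104 CPM in the lung libraries, against 45.5 and 46.1 CPM in the liver libraries, and this factor that directs follicular helper T cells was 2.51-fold higher (log2 change 1.33 ± 0.11, adjusted p = 3.48e-09). Pou2af1, a coactivator of octamer-binding factors, had 10.1 and 7.64 CPM in lung and 1.37 and 1.85 CPM in liver (log2 change 2.48 ± 0.22, adjusted p = 9.35e-09). Sostdc1 had 61.3 and 62.8 CPM in the lung libraries, against 13.3 and 12.6 CPM in the liver libraries (log2 change 2.26 ± 0.11, adjusted p = 4.44e-13), and it encodes a secreted antagonist of BMP and Wnt signals. Both lung libraries stood above both liver libraries for all 3. Among surface receptors of help, Icos and Cd40lg were higher by log2 changes of 0.61 and 0.48 (adjusted p = 1.11e-06 and 8.90e-05), and the IL-6 receptor chain Il6ra by 1.88 (adjusted p = 6.94e-09). Cxcr5, the receptor that guides cells to B cell follicles, had 78.98 and 86.3 CPM in lung and 77.4 and 70.6 CPM in liver and was not called (adjusted p = 0.164). Il21 had 71.4 and 68.1 CPM in the lung libraries, against 97.8 and 117 CPM in the liver libraries, and this cytokine that drives B cell differentiation was lower in lung (log2 change -0.62 ± 0.09, adjusted p = 9.42e-06). P2rx7, an ATP-gated channel, and Slamf1, a receptor of the SLAM family, were lower, at log2 changes of -0.77 and -0.52 (adjusted p = 6.77e-09 and 9.63e-05).

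Genes of naive and memory T cells showed the same side. Of 22 listed genes 14 were higher in lung and 3 lower (median 0.68). Tcf7 had 1403 and 1624 CPM in the lung libraries, against 736 and 691 CPM in the liver libraries, and this TCF-1 factor of memory and stem-like T cells was 2.12-fold higher (log2 change 1.08 ± 0.07, adjusted p = 2.18e-10). Ccr7, the receptor for homing to lymph nodes, had 34.3 and 39.96 CPM in lung and 8.33 and 7.83 CPM in liver (log2 change 2.20 ± 0.12, adjusted p = 9.90e-12). Bach2, a repressor of effector genes, and Id3, an inhibitor of E proteins, were higher by log2 changes of 1.73 ± 0.15 and 1.99 ± 0.13 (adjusted p = 8.30e-09 and 6.09e-11). Il7r, the IL-7 receptor chain that sustains memory cells, had 522 and 545 CPM in lung and 254 and 307 CPM in liver (log2 change 0.93 ± 0.08, adjusted p = 7.70e-09). Il2rb had 711 and 720.3 CPM in the lung libraries, against 1422 and 1382 CPM in the liver libraries, and this receptor chain for IL-2 and IL-15 was lower in lung (log2 change -0.97 ± 0.07, adjusted p = 8.02e-10).

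Genes of egress and of residency both held members higher in lung. Of 19 egress genes 8 were higher in lung and 4 lower, and 2 were lower without the first lung library. S1pr1, the receptor that draws T cells out of tissue, had 143 and 171 CPM in lung and 48.7 and 52.3 CPM in liver (log2 change 1.64 ± 0.09, adjusted p = 1.29e-11). Klf2, which induces S1pr1, had 139.7 and 219 CPM in lung and 68.2 and 59.1 CPM in liver (log2 change 1.49 ± 0.13, adjusted p = 1.54e-08), the 2 lung libraries lying further apart than for S1pr1. Of 27 residency genes 12 were higher and 9 lower, with a median of 0.11. Cd69 had 262 and 309 CPM in the lung libraries, against 146 and 181 CPM in the liver libraries, and this protein that holds S1PR1 inside the cell was higher (log2 change 0.81 ± 0.09, adjusted p = 6.66e-07). Cdh1 (E-cadherin), Rgs2 and the chemokine receptor Ccr8 were higher by log2 changes of 1.90, 2.10 and 1.84 (adjusted p = 6.80e-12, 3.06e-14 and 4.86e-12). Prdm1 had 62.7 and 81.05 CPM in the lung libraries, against 136 and 143 CPM in the liver libraries, and this Blimp-1 repressor of effector and resident cells was lower (log2 change -0.96 ± 0.10, adjusted p = 7.98e-08). Cxcr6, a chemokine receptor of resident cells in liver and lung, had 551 and 493 CPM in lung and 719 and 759.5 CPM in liver (log2 change -0.50 ± 0.08, adjusted p = 2.35e-05). Itga1, the collagen-binding CD49a chain, was lower, at a log2 change of -0.69 (adjusted p = 4.80e-05), while Itgae, the CD103 chain that binds E-cadherin, had 31.03 and 34.8 CPM in lung and 30.6 and 30.4 CPM in liver and was not called.

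**Figure D4:**
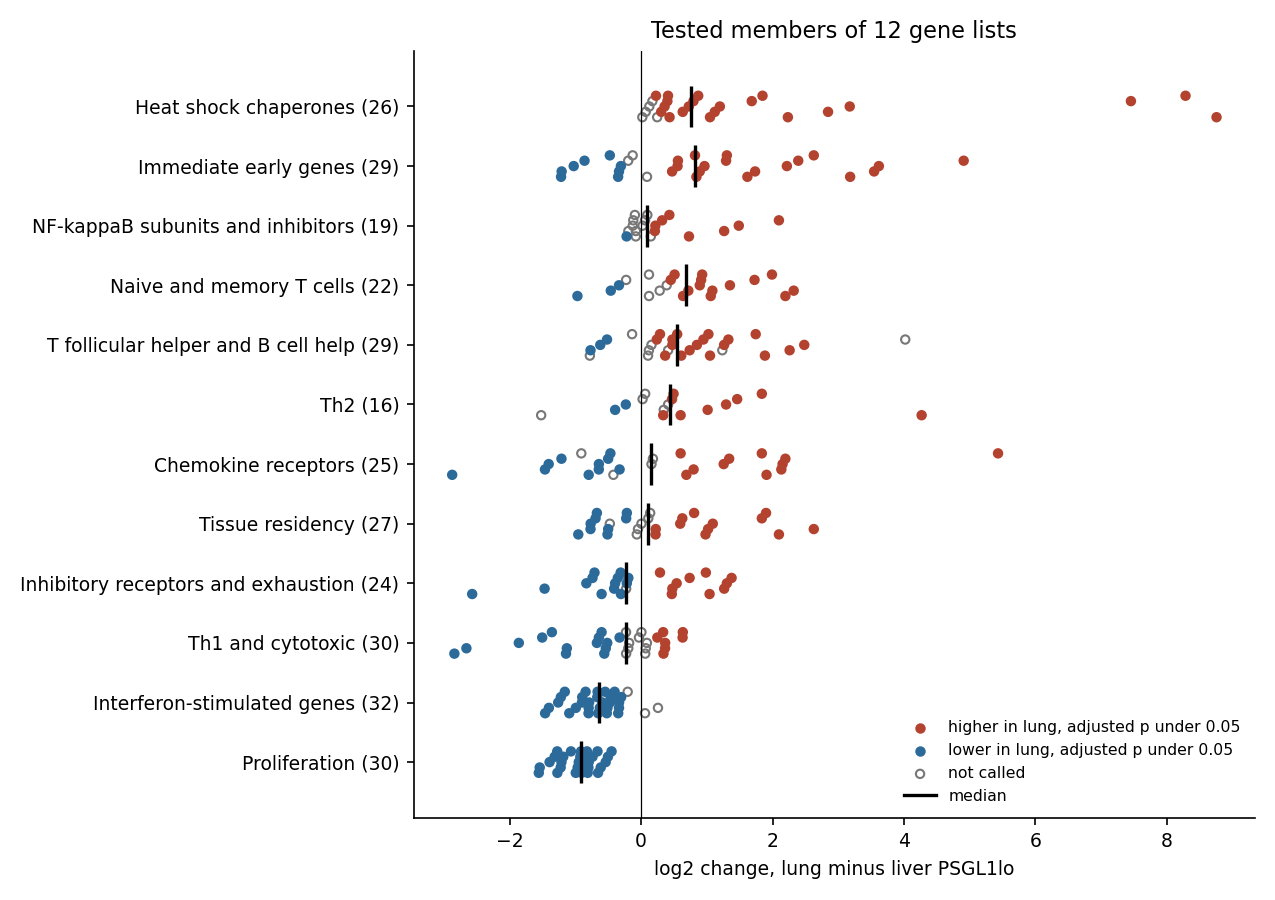
Log2 change, lung minus liver PSGL1lo, of each tested member of 12 gene lists (rows, with the number of tested members); filled points had an adjusted p under 0.05, red above and blue below 0, open points were not called, and bars are medians. The chaperone list has no blue point and the proliferation list no red one, whereas residency, inhibitory receptor and chemokine receptor lists hold both.

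The granzymes and perforin were lower in lung. Of 30 Th1 and cytotoxic genes 14 were lower in lung and 7 higher, with a median of -0.23. Gzmb had 15.2 and 27.1 CPM in the lung libraries, against 157 and 146 CPM in the liver libraries, and this granzyme of killer cells was 7.18-fold lower (log2 change -2.84 ± 0.16, adjusted p = 6.32e-12). Gzma, a second granzyme, had 6.11 and 13.8 CPM in lung and 68.1 and 56.5 CPM in liver (log2 change -2.66 ± 0.24, adjusted p = 1.94e-08). Prf1, the pore-forming perforin, had 15.8 and 16.3 CPM in lung and 47.01 and 43.9 CPM in liver (log2 change -1.51 ± 0.09, adjusted p = 1.88e-11). For all 3 both lung libraries lay below both liver libraries, which the rule that picked Gzmb and Gzma required. The first lung library was the lower one for each granzyme. Beside these levels, Cd8a was 6.51-fold lower in lung, and Klrb1c (NK1.1), a marker of NK and NKT cells, had 2.46 and 2.63 CPM in lung and 9.71 and 10.3 CPM in liver. The list of CD8 T cell genes summed to 362 and 364 CPM in lung and 340.4 and 330.3 CPM in liver, with 2 of 6 tested members higher and 2 lower (1 without either lung library or the first liver library). The NK cell list, 6 of 12 tested members higher and 2 lower, summed to 239 and 274 CPM in lung and 223 and 211 CPM in liver. The part of such cells in the granzyme difference was not tested.

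The factors of the Th1 lineage changed less. Tbx21, which encodes T-bet, had 137 and 112 CPM in lung and 186 and 170.3 CPM in liver (log2 change -0.52 ± 0.10, adjusted p = 0.000404). Id2 had 522 and 567 CPM in the lung libraries, against 1129 and 1257 CPM in the liver libraries, and this E protein inhibitor of effector cells was lower (log2 change -1.13 ± 0.07, adjusted p = 7.29e-11). Ifng had 285 and 314 CPM in the lung libraries, against 246 and 259 CPM in the liver libraries, and the gene of interferon gamma was slightly higher (log2 change 0.25 ± 0.07, adjusted p = 0.011), a call lost without the second lung library (log2 change 0.18, adjusted p = 0.136) or the first liver library (log2 change 0.20, adjusted p = 0.0689). Of 22 tested chemokine ligands 12 were higher and 4 lower. Among the lower ones was Ccl3, which activated T cells secrete, with 36.7 and 42.2 CPM in lung and 157 and 157 CPM in liver (log2 change -1.99 ± 0.09, adjusted p = 1.54e-13). Ccl5 had 538 and 757 CPM in lung and 1843 and 1479 CPM in liver (log2 change -1.36 ± 0.12, adjusted p = 1.71e-08), and Ccl4 was lower, at a log2 change of -1.28 ± 0.11. Xcl1 and Ccl1, which T cells also secrete, had 97.4 and 80.96 CPM and 46.1 and 35.5 CPM in lung and 94.5 and 92.3 CPM and 40.4 and 41.8 CPM in liver and were not called. All 12 chemokine ligands that were higher in lung, Ccl6, Cxcl1 and Cxcl2 among them, stood at or below 2.26 CPM in each liver library.

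Beyond hepatocyte genes and granzymes, large decreases in lung came from several groups. Mmp9 had 8.69 and 7.64 CPM in the lung libraries, against 123 and 108 CPM in the liver libraries, and this gelatinase was 14.2-fold lower (log2 change -3.82 ± 0.13, adjusted p = 3.71e-15). Cd7, a T cell surface glycoprotein, had 18.9 and 34.2 CPM in lung and 301 and 262 CPM in liver (log2 change -3.41 ± 0.18, adjusted p = 3.83e-12). Dtx1, the Deltex ubiquitin ligase of the Notch pathway, had 16.7 and 28.2 CPM in lung and 176 and 166 CPM in liver (log2 change -2.94 ± 0.15, adjusted p = 2.11e-12). Mmp9, Cd7 and Dtx1 were picked by a rule that requires 10 CPM or more in both libraries of the higher tissue and no overlap. That every lung library lay below both liver libraries thus follows from the choice. Notch1 itself had 316 and 333 CPM in lung and 523 and 583 CPM in liver (log2 change -0.77 ± 0.08, adjusted p = 1.74e-07). Serpina3f, a protease inhibitor with near-identical copies, was 4.82-fold lower and Serpina9 4.17-fold lower. Atp8a2, a phospholipid flippase, Chst15, a sulfotransferase, Soat2, which esterifies cholesterol, and F2rl2, a protease-activated receptor, were 9.36-fold, 5.39-fold, 4.101-fold and 3.896-fold lower (adjusted p = 1.88e-12, 3.26e-10, 5.77e-09 and 1.99e-10).

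Genes of the other helper lineages were more often higher in lung. Of 16 tested Th2 genes 9 were higher and 2 lower; 3 were lower without the second liver library, and 1 without the first liver or second lung library. Areg had 38.8 and 37.7 CPM in the lung libraries, against 1.69 and 2.36 CPM in the liver libraries, and this epidermal growth factor family ligand of tissue repair was 19.3-fold higher (log2 change 4.27 ± 0.16, adjusted p = 1.32e-14). Il13 had 10.9 and 6.34 CPM in lung and 4.01 and 2.91 CPM in liver (log2 change 1.29 ± 0.22, adjusted p = 7.63e-05), and Gata3, the factor of Th2 cells, had 351 and 319 CPM in lung and 249 and 235 CPM in liver (log2 change 0.47 ± 0.08, adjusted p = 0.000115). Of 18 Th17 genes 9 were higher and 4 lower. The higher count depended on single libraries, falling without the second lung or first liver library and rising without the first lung or second liver library. Il17a was low in both tissues, with 1.48 and 2.14 CPM in lung and 0.0573 and 0.126 CPM in liver, and Ccr6, a chemokine receptor of Th17 cells, had 17.3 and 21.97 CPM in lung and 11.9 and 10.7 CPM in liver (log2 change 0.80 ± 0.15, adjusted p = 0.00026).

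Of 20 regulatory T cell genes 10 were higher and 3 lower. Foxp3, the factor of regulatory T cells, had only 7.08 and 7.502 CPM in lung and 4.21 and 4.97 CPM in liver (log2 change 0.68 ± 0.15, adjusted p = 0.00113). Ctla4 had 313 and 317 CPM in the lung libraries, against 109 and 134 CPM in the liver libraries, and this inhibitory receptor was 2.596-fold higher (log2 change 1.38 ± 0.08, adjusted p = 2.55e-11). Nrp1, Ikzf2 (Helios) and Nt5e (CD73) were higher by log2 changes of 1.07, 1.02 and 1.04 (adjusted p = 3.99e-10, 1.57e-08 and 3.18e-08). Inhibitory receptors and exhaustion genes were split, with 10 of 24 higher and 13 lower. Tox, a factor of exhausted and follicular T cells, had 579 and 546 CPM in lung and 404 and 410.1 CPM in liver (log2 change 0.47 ± 0.07, adjusted p = 2.24e-05). Cd160 had 42.5 and 41.8 CPM in lung and 123 and 110.2 CPM in liver (log2 change -1.47 ± 0.09, adjusted p = 2.14e-11), and Havcr2 (TIM-3) was lower, at a log2 change of -0.60 ± 0.10. Pdcd1 had 579 and 528 CPM in the lung libraries, against 478 and 429.6 CPM in the liver libraries (log2 change 0.29 ± 0.07, adjusted p = 0.00325), and this PD-1 call was lost without the first lung library (log2 change 0.21, adjusted p = 0.0742).

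Proliferation genes were lower in lung without exception among the 30 tested, with a median of -0.91; 29 or 30 were called when any 1 library was left out. Mki67 had 243 and 257 CPM in the lung libraries, against 369.9 and 397 CPM in the liver libraries, and this marker of cycling cells was 1.53-fold lower (log2 change -0.62 ± 0.07, adjusted p = 8.95e-07). Birc5 (survivin), a subunit of the chromosomal passenger complex, had 5.68 and 8.26 CPM in lung and 23.5 and 17.1 CPM in liver (log2 change -1.56 ± 0.18, adjusted p = 4.81e-07). Rrm2, which makes the building blocks of DNA, had 15.9 and 18.8 CPM in lung and 54.1 and 46.5 CPM in liver (log2 change -1.54 ± 0.11, adjusted p = 2.35e-10). Both lung libraries lay below both liver libraries for each. Of 35 replication-dependent histone genes 6 were higher in lung and none lower. That is 17.1% of the list, near the 19.6% of all genes called higher in lung, so it is no lean to lung. With limma-voom 4 were higher, and both counts varied with the library left out. The transcripts of these histone genes lack the poly(A) tail that an mRNA kit selects, and their counts are uncertain because the copies are near-identical.

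Interferon-stimulated genes were lower in lung as well. Of 32 listed genes 28 were lower and none higher, with a median of -0.64, and 22 to 28 were lower when any 1 library was left out, with 1 higher without the first lung or first liver library. In PSGL1hi cells 21 of them were lower in lung and 1 higher. Isg15 had 11.96 and 14.3 CPM in the lung libraries, against 33.6 and 27.5 CPM in the liver libraries, and this ubiquitin-like protein was 2.33-fold lower (log2 change -1.22 ± 0.14, adjusted p = 3.41e-07). Rtp4 had 17.8 and 22.8 CPM in lung and 54.7 and 52.6 CPM in liver (log2 change -1.40 ± 0.14, adjusted p = 4.13e-08). Ifit1, which binds foreign RNA, had 29.1 and 28.7 CPM in lung and 50.5 and 57.4 CPM in liver (log2 change -0.90 ± 0.12, adjusted p = 4.19e-06). The tissues did not overlap for any of these 3 genes.

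The promoter windows of Isg15 and Ifit1 are printed as 2 members of this group, again from RefSeq on GRCm38.p6 and from 250 bases before to 50 after the start; capitals mark the interferon-stimulated response element searched for, GAAANNGAAA or, on the other strand, TTTCNNTTTC. Isg15 lies at chr4:156200769-156201068 on the minus strand and holds 3 overlapping matches, the first at -78. Ifit1 lies at chr19:34640639-34640938 on the plus strand and holds 2 matches, the first at -104.
Isg15: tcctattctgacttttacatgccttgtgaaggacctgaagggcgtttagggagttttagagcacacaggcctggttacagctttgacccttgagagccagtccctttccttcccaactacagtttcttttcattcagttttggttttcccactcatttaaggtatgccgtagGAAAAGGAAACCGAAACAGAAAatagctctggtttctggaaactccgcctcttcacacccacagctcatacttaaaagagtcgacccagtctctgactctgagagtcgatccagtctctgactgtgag
Ifit1: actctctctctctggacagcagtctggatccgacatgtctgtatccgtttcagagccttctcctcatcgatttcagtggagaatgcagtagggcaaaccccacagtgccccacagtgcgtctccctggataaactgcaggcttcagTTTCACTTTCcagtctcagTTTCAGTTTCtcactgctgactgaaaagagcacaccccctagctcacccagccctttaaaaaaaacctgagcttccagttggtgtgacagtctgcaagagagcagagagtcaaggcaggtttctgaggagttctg
Of the 32 listed genes 24 had a window and 16 of those held a match (66.7%), as did 15 of the 21 called lower in lung that had a window, against 3.44% of all 32851 windows. None of the 20 chaperone windows held this motif, and 5 of these 24 held the heat shock element. The match says nothing on whether a factor was bound in these cells.

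Chemokine receptors and integrins were split between the tissues. The chemokine receptor list had 11 of 25 tested members higher in lung and 10 lower, with a median of 0.16. Cxcr4 had 509 and 597 CPM in the lung libraries, against 127 and 122 CPM in the liver libraries, and this receptor for CXCL12 was 4.45-fold higher (log2 change 2.15 ± 0.07, adjusted p = 4.63e-15). Gpr18, a lipid receptor of lymphocytes, had 16.2 and 21.2 CPM in lung and 52.1 and 47.05 CPM in liver (log2 change -1.41 ± 0.12, adjusted p = 8.87e-09). Ccr9, a receptor of gut-homing T cells, had 13.2 and 14.6 CPM in lung and 40.8 and 35.9 CPM in liver (log2 change -1.46 ± 0.11, adjusted p = 8.13e-10). Cxcr3, a receptor of Th1 cells, had 439 and 481 CPM in lung and 599 and 556 CPM in liver (log2 change -0.33 ± 0.07, adjusted p = 0.00107). Of 28 adhesion genes 12 were higher and 8 lower. Itgal had 1705 and 1868 CPM in the lung libraries, against 2709 and 2809 CPM in the liver libraries, and this LFA-1 chain that binds ICAM-1 was lower (log2 change -0.63 ± 0.07, adjusted p = 4.58e-07), as was its partner Itgb2, at -0.55 ± 0.06. Itga2, a collagen receptor chain, had 11.1 and 15.5 CPM in lung and 40.1 and 46.8 CPM in liver (log2 change -1.71 ± 0.13, adjusted p = 1.89e-09). Itgax (CD11c) had 45.2 and 83.5 CPM in lung and 1.603 and 2.27 CPM in liver, and it also marks alveolar macrophages and dendritic cells.

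Cytokines of the TNF family and factors of tissue repair followed the same mixed pattern. Of 27 TNF family and costimulation genes 13 were higher in lung and 8 lower. Cd28 had 678 and 596 CPM in the lung libraries, against 317 and 365 CPM in the liver libraries, and this costimulatory receptor was 1.87-fold higher (log2 change 0.90 ± 0.08, adjusted p = 7.00e-09). Tnfsf11 (RANKL) and Tnfsf9 (4-1BB ligand) were higher by log2 changes of 0.70 ± 0.11 and 1.44 ± 0.18, and Tnfsf14 (LIGHT) was lower, at a log2 change of -0.87 ± 0.09. Of 28 cytokine and growth factor genes 15 were higher and 7 lower. Tnf had 86.8 and 117 CPM in the lung libraries, against 180.5 and 177 CPM in the liver libraries (log2 change -0.81 ± 0.11, adjusted p = 2.76e-06), and Csf1, the growth factor of macrophages, was lower, at a log2 change of -0.71 ± 0.09 (adjusted p = 3.20e-06). Of 18 tested repair mediators 9 were higher and 5 lower, the lower ones including Pdgfb, a growth factor for fibroblasts, with 19.4 and 22.4 CPM in lung and 39.97 and 36.4 CPM in liver (log2 change -0.87 ± 0.13, adjusted p = 1.24e-05).

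Of 23 genes of the TGF-beta pathway 12 were higher and 3 lower, with a median of 0.29. Inhibitors of the signal were among those higher, since Smad7 had 139 and 136 CPM in the lung libraries, against 74.8 and 67.8 CPM in the liver libraries (log2 change 0.95 ± 0.10, adjusted p = 2.56e-07), and Ldlrad4, which keeps Smad proteins from the receptor, was higher by a log2 change of 1.81 ± 0.11. Tgif1, a corepressor of Smad proteins, had 94.5 and 102 CPM in lung and 26.2 and 28.1 CPM in liver (log2 change 1.86 ± 0.10, adjusted p = 5.72e-12). Smad3, which transmits the signal, was lower, at a log2 change of -0.44 ± 0.08 (adjusted p = 0.00016), and the receptor chain Tgfbr2 had 545 and 539 CPM in lung and 563 and 575 CPM in liver and was not called. Of 20 regulators of G protein signals 11 were higher and 2 lower. Ramp3, a partner of calcitonin-type receptors, had 60.3 and 47.3 CPM in lung and 11.4 and 10.4 CPM in liver (log2 change 2.30 ± 0.14, adjusted p = 3.42e-11). Of 22 genes of calcium and ion handling 3 were higher and 9 lower.

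Genes of metabolism and of other stress responses moved in both directions. Of 26 glycolysis and hypoxia genes 7 were higher and 9 lower, Hif1a, the hypoxia factor, being higher by 0.86 ± 0.07 (adjusted p = 4.04e-09). Of 30 tested genes of cholesterol and fatty acid synthesis 4 were higher and 11 lower, and Abca1, which exports cholesterol, had 36.4 and 36.7 CPM in lung and 6.79 and 9.097 CPM in liver (log2 change 2.22 ± 0.12, adjusted p = 5.05e-12). Lpl, a lipase that frees fatty acids, had 78.4 and 99.4 CPM in lung and 9.65 and 9.77 CPM in liver (log2 change 3.19 ± 0.16, adjusted p = 1.64e-12), and macrophages make it too. The metal-binding metallothioneins Mt1 and Mt2 were higher by log2 changes of 3.27 and 3.15 (adjusted p = 1.79e-11 and 7.61e-08). Of 18 genes of the unfolded protein response in the endoplasmic reticulum 3 were higher and 9 lower, none past 1.5-fold. With only the 4 PSGL1lo libraries fitted, 6 were lower. The cytosolic chaperones, unlike these genes, had no lower member. Hspa5 (BiP) had 1034 and 1320 CPM in lung and 1099 and 1211 CPM in liver and was not called. Of 50 ribosomal protein genes 16 were higher and 1 lower. In both directions together 34% were called, below the 39.9% over all genes. The higher count rose without the first library of either tissue and fell without the second. Of 57 nuclear-encoded genes of oxidative phosphorylation 5 were higher and 11 lower, none past 1.5-fold. This is 28.1% called, also below the share over all genes. With only the 4 PSGL1lo libraries fitted, 1 was higher and 4 lower. Both counts moved up or down with the library left out.

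The same contrast in PSGL1hi cells shows which differences depended on the fraction. In PSGL1hi cells 5288 genes were called between lung and liver (38.4% of those tested), 2764 higher in lung (20.1%) and 2524 lower (18.3%). Of the genes called in PSGL1lo cells 64.9% were also called in the same direction in PSGL1hi cells, as 67.6% of the PSGL1hi calls were in PSGL1lo cells, and 75 genes were called in opposite directions. The difference between the lung-liver changes of the 2 fractions (PSGL1lo minus PSGL1hi) was itself called for 823 genes, 5.97% of those tested, 287 positive (2.08%) and 536 negative (3.89%), and 107 (0.776%) past 1.5-fold. That count was 520 without the first lung and 1320 without the second liver library.

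Proliferation was the list with the most such calls in 1 direction, 18 of 30, all negative. In PSGL1hi cells 15 of the 30 were also lower in lung and none higher, with a median of -0.29. The lower level in lung was thus not confined to PSGL1lo cells. Birc5 had 5.68 and 8.26 CPM in the lung libraries, against 23.5 and 17.1 CPM in the liver libraries, whereas in PSGL1hi cells it stood at 24.4 and 35.2 CPM in lung PSGL1hi, against 32.1 and 32.2 CPM in liver PSGL1hi libraries (difference -1.45 ± 0.23, adjusted p = 0.000372). Mki67 likewise had 547 and 638 CPM in lung PSGL1hi, against 535 and 568 CPM in liver PSGL1hi libraries (difference -0.72 ± 0.10, adjusted p = 0.00012). Lung PSGL1lo libraries were thus the lowest of the 4 groups for both genes, and the lung and liver PSGL1hi libraries overlapped. The NF-kappaB list had 10 of 19 negative differences and none positive. Tnfaip3 reached 5912 and 6024 CPM in lung PSGL1hi, against 680.5 and 755 CPM in liver PSGL1hi libraries (difference -0.96 ± 0.11, adjusted p = 9.86e-06), so its lung-liver difference was smaller in PSGL1lo cells. Cxcr4 behaved alike, with 849 and 846 CPM in lung PSGL1hi, against 92.1 and 89.3 CPM in liver PSGL1hi libraries (difference -1.07 ± 0.10, adjusted p = 9.24e-07). Of 26 chaperone genes 6 had a negative difference and none a positive one, all with the same side of the lung-liver change in both fractions.

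The tissues also parted the fractions in genes of help and effector function. Il21 had 21.6 and 17.7 CPM in lung PSGL1hi, against 86.2 and 83.2 CPM in liver PSGL1hi libraries, a wider gap than in PSGL1lo cells (difference 1.49 ± 0.13, adjusted p = 5.43e-07). Sostdc1 was nearly absent from PSGL1hi cells, with 0.778 and 0.784 CPM in lung PSGL1hi, against 0.539 and 0.435 CPM in liver PSGL1hi libraries (difference 1.57 ± 0.36, adjusted p = 0.00972). Tox had 579 and 546 CPM in the lung libraries, against 404 and 410.1 CPM in the liver libraries, but in PSGL1hi cells it had 251 and 266 CPM in lung PSGL1hi, against 402 and 416 CPM in liver PSGL1hi libraries, the opposite order (difference 1.13 ± 0.10, adjusted p = 5.43e-07). Fasl, the death ligand, had 39.8 and 41.7 CPM in lung and 64.4 and 65.7 CPM in liver PSGL1lo libraries, and 133 and 142 CPM in lung PSGL1hi, against 95.9 and 87.4 CPM in liver PSGL1hi libraries, again in opposite order (difference -1.26 ± 0.11, adjusted p = 5.43e-07). Gzmb was lower in lung in both fractions, with 164 and 213 CPM in lung PSGL1hi, against 452 and 448 CPM in liver PSGL1hi libraries (difference -1.59 ± 0.20, adjusted p = 3.19e-05). Beside it, Cd8a had 12.3 and 13.4 CPM in lung PSGL1hi, against 94.9 and 96.8 CPM in liver PSGL1hi libraries, and its part in the Gzmb levels was not tested. Prdm1 had 161 and 188 CPM in lung PSGL1hi, against 186 and 182 CPM in liver PSGL1hi libraries, levels that overlapped between tissues, unlike those in PSGL1lo cells (difference -0.88 ± 0.13, adjusted p = 0.000199). Of the 29 follicular helper genes 8 had a positive and 6 a negative difference. Bcl6 was among the negative ones, higher in lung PSGL1hi by a log2 change of 2.17 (difference -0.85 ± 0.16, adjusted p = 0.00166). Cd40lg was another, higher there by 1.21 (difference -0.74 ± 0.12, adjusted p = 0.000271). For both genes the lung-liver change was thus larger in PSGL1hi cells. Of the 27 residency genes 15 had a negative difference and none a positive one. Itgae, not called in PSGL1lo cells, had 92.3 and 102 CPM in lung PSGL1hi, against 48.98 and 50.4 CPM in liver PSGL1hi libraries (difference -0.86 ± 0.13, adjusted p = 0.000129).

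**Figure D5:**
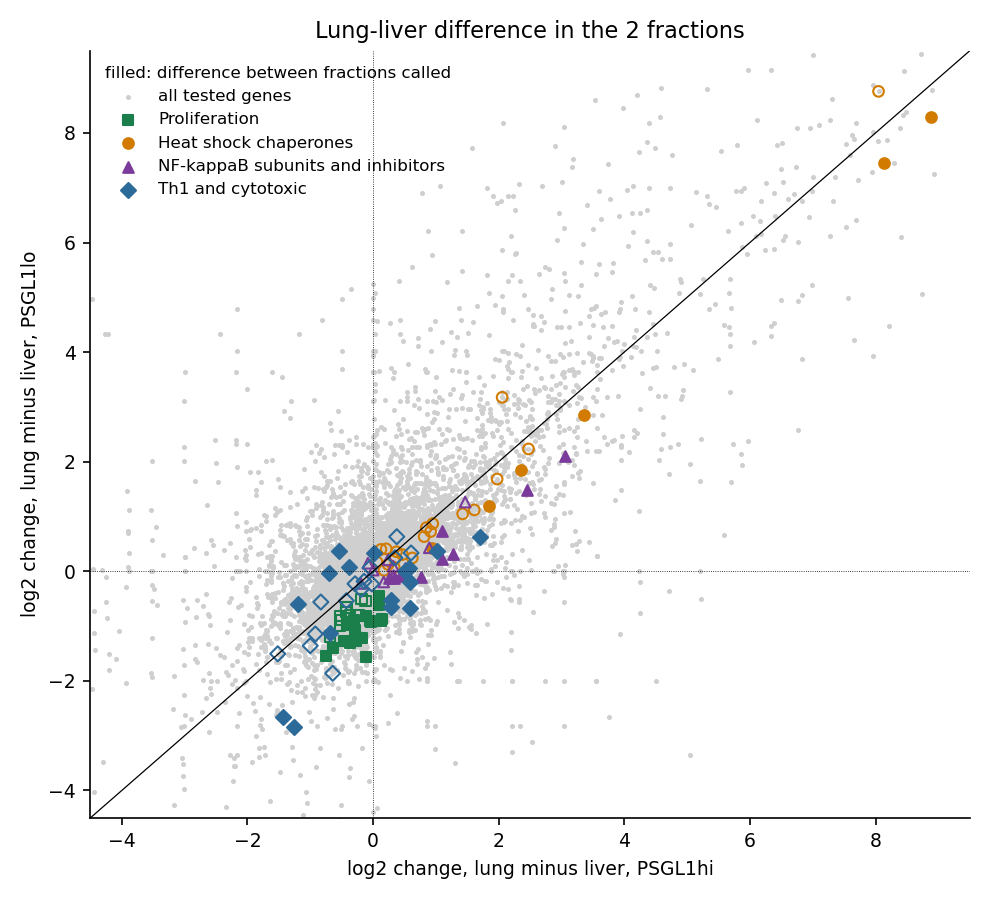
Log2 change between lung and liver in PSGL1lo cells (vertical axis) against that in PSGL1hi cells (horizontal axis) for every gene tested within the axis range, with 4 lists coloured; filled symbols had a called difference between the fractions. Most proliferation genes lie below the diagonal, and chaperones lie along it, with 3 genes near its upper end.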

How the data were processed

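RNA sequencing counts of 14 libraries were used, 4 of them lung and liver PSGL1lo. The deposited values are raw whole-number counts per gene from the authors; the submitters' processing notes name TopHat2 2.0.8, HTSeq and the mouse build mm9. RNA was extracted with Qiagen RNeasy and prepared with Kapa mRNA HyperPrep, per the labels' protocols. Neither annotation nor strand setting is given in the sources used here, so overlapping genes and near-identical copies (Hspa1a and Hspa1b, histone, Klr, H2 and Serpina3 genes) have uncertain counts. With edgeR 4.0.16 in R 4.3.3, filterByExpr left 13780 of 25017 genes, TMM scaled the libraries, and a model with a mean for each of 7 groups took in all 14 libraries, leaving 7 residual degrees of freedom. Contrasts had 2-sided quasi-likelihood F tests, or glmTreat against 1.5-fold, with Benjamini-Hochberg adjustment over all genes; SE values come from the F statistic. Alternatives used DESeq2 1.42.0, limma-voom (limma 3.58.1), no filter, fewer libraries, a replicate block and each library left out, and the fit was tested on simulated data. Named genes are the 15 with the largest change in each direction at 10 CPM or more in both libraries of the higher tissue with no overlap, key members of 51 lists, up to 4 called members per list and direction, and Selplg; a few of them are not reported here. The members and lists were chosen with earlier results of these data known. No replicate pair was alike within sampling noise, the chi-square over its degrees of freedom being 3.04 to 19.6. The floor of 3 counts covers counting error only.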

Additional observations from a re-analysis of the deposited data

Results flagged for a closer look

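The lung-liver change differed between PSGL1lo and PSGL1hi cells beyond 1.5-fold, by an interaction test against that fold, for 24 of the named genes reported here; values are the log2 change in PSGL1lo cells minus that in PSGL1hi cells. It was more negative in PSGL1lo cells for Cxcl10 (-1.74), Zbtb46 (-1.70), Ramp3 (-1.64), Mmp9 (-1.60), Gzmb (-1.59), Ccr9 (-1.57), Gm4956 (-1.56), Dtx1 (-1.55), Birc5 (-1.45), Atp8a2 (-1.40), Fosb (-1.36) and Fasl (-1.26). It was also more negative for Cxcr4 (-1.07), Serpinb9 (-1.07), Icos (-1.05), Nfe2l2 (-1.05), Nfkbiz (-0.96), Tnfaip3 (-0.96) and Nfkbia (-0.95). It was more positive for Itgax (3.23), Ccr1 (1.77), Il21 (1.49), Lag3 (1.22) and Tox (1.13).

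Cxcl10, a chemokine induced by interferon, had 22.3 and 25.2 CPM in lung and 48.04 and 45.2 CPM in liver PSGL1lo libraries, and 12.9 and 14.5 CPM in lung PSGL1hi, against 7.68 and 8.48 CPM in liver PSGL1hi libraries, so the order of the tissues was opposite in the 2 fractions. Itgax had 74.3 and 95.3 CPM in lung PSGL1hi, against 22.3 and 24.5 CPM in liver PSGL1hi libraries, so that liver PSGL1hi libraries held it well above the 1.603 and 2.27 CPM of the liver PSGL1lo libraries. Lag3 had 219 and 193 CPM in lung and 244 and 235 CPM in liver PSGL1lo libraries, and 135 and 129 CPM in lung PSGL1hi, against 347 and 370.3 CPM in liver PSGL1hi libraries.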

How the results depend on the processing

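The count of genes called between lung and liver PSGL1lo cells was 5504 and ranged over 4231 to 5921 with 1 library left out, with 3782 when only the 4 PSGL1lo libraries were fitted; the count past 1.5-fold was 1308 and ranged over 1064 to 1573, with 956 in the 4 libraries alone. DESeq2 size factors, the DESeq2 test, limma-voom and no filter on low counts gave 5459, 5161, 5847 and 5608 calls. The number of genes whose lung-liver difference differed between fractions was 823 and ranged over 520 (without the first lung library) to 1320 (without the second liver library); the cause was not tested. No named gene that was called in the main fit or under an alternative changed direction between the 2. Genes called in neither were not checked for direction. Of 420 named genes tested 375 were called, and 328 had the same call under every alternative. With a replicate block the counts were 5302 and 1269, and 753 for the difference between fractions. Same-numbered lung and liver PSGL1lo libraries deviated in opposite directions (Pearson's r = -0.28 across 8895 genes, which are not independent), whereas same-numbered lung PSGL1lo and PSGL1hi libraries deviated together (r = 0.24) and the other 4 pairs of groups gave -0.066 to 0.049. The labels tie no number to an animal or day, so the numbers were not taken to pair the samples; a block with the liver numbers swapped, added after seeing the data, gave 5630 and 1310. With 2 libraries a group, small changes of genes with few counts are the least certain.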
